A study of Homo sapiens with 4 samples.

Results

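DNA methylation and Polycomb silencing were described here through 10 genes that write, read or remove 2 repressive marks on chromatin. They were the DNA methyltransferases *DNMT1*, *DNMT3A* and *DNMT3B*, the maintenance cofactor *UHRF1*, the TET dioxygenases *TET1*, *TET2* and *TET3*, and *EZH2*, *EED* and *SUZ12* of Polycomb repressive complex 2 (PRC2). The genes were chosen by name and function and not by their own values, but with earlier results of these data known. Of the 10, 9 were matched to a row among the 63677 genes listed, and all 9 passed the filter on low counts and were tested. *UHRF1* was not matched and was not analysed here. The parental line, FLO-1, was established from a human esophageal adenocarcinoma (EAC). FLO-1LM is a subline that was grown out of a large liver metastasis, after deposits of FLO-1 in the livers of immunodeficient (NSG) mice had been passed from animal to animal, and that was then kept in culture. RNAseq was available for 2 libraries of FLO-1LM and 2 libraries of the FLO-1 parental line, both from cultured cells. The lines were compared to find expression differences that came with metastasis, and the mRNA of the silencing machinery is set here beside *CDH1*, the gene of the epithelial adhesion protein E-cadherin. Whether the 2 libraries of each line represent separate cultures is not given in the labels, so the p-values measure only the spread between these libraries, which may be technical. FLO-1LM is a single derived line, and what differs between it and its parent cannot be told apart from the choice of that deposit.

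DNA methyltransferases place a methyl group on the cytosine of CpG dinucleotides. DNMT1 copies the mark onto the new strand after replication, guided by UHRF1 to hemimethylated DNA, whereas DNMT3A and DNMT3B can set it on unmethylated DNA. The TET enzymes oxidize methylcytosine, which leads to its removal through dilution at replication or through base excision repair. PRC2 methylates lysine 27 of histone H3: EZH2 is the catalytic subunit, EED binds the finished mark and stimulates the enzyme, and SUZ12 is the scaffold. Dense methylation of a promoter CpG island, or H3K27 trimethylation over it, goes with a silent gene, and in carcinomas *CDH1* is a known target of both. The libraries measured mRNA only: neither DNA methylation, nor histone marks, nor protein was measured.

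Total counts per library ran from 19060310 to 25920336. Libraries of a line differed by more than counting error alone, with a chi-square per degree of freedom of 7.85 in FLO-1LM and 3.70 in parental cells, so neither pair was 1 library deposited again. Mitochondrial genes took 9.57% to 9.96% of counts in FLO-1LM and 7.93% to 8.31% in parental cells. By edgeR (quasi-likelihood F-test, p-values adjusted after Benjamini and Hochberg), 382 of 17143 tested genes passed an adjusted p-value of 0.05 (2.23%), 69 upregulated in FLO-1LM (0.402%) and 313 downregulated (1.83%). That total was 1052 and 967 without FLO-1LM libraries 1 and 2, and 116 and 139 without parental libraries 1 and 2. Of the markers of simple epithelium, *KRT8*, *KRT18* and *KRT19* were expressed in both lines and downregulated in FLO-1LM, with a summed level of 462 to 479 CPM (counts per library of equal size, after TMM scaling) in FLO-1LM and 759 to 775 CPM in parental cells, and *EPCAM* had only 3 to 12 counts in any library. Among 6 hepatocyte markers 4 were at 0 in every library, including albumin, and the summed level was 13.4 to 14.8 CPM in FLO-1LM and 16.4 to 18.1 CPM in parental cells. Among 6 leukocyte markers 4 were at 0, including *PTPRC*, and the sum reached at most 0.893 CPM in FLO-1LM libraries and 0.499 CPM in parental libraries. Of 5 matched markers of fibroblasts and endothelium, *COL3A1* and *DCN* were at 0, and the sum was 10.6 to 12.8 CPM in FLO-1LM and 10.01 to 12.6 CPM in parental cells.

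*CDH1* (ENSG00000039068; GRCh37 chromosome 16, 68771195 to 68869440, plus strand) had 365 and 512 counts in the FLO-1LM libraries and 1894 and 1583 in the parental libraries, or 16.4 and 19.9 CPM against 85.9 and 82.6 CPM. Both FLO-1LM libraries lay far under both parental libraries. It was downregulated by edgeR (log2 fold change −2.21, SE 0.11, adjusted p-value 1.12e-09), to 0.216 of the parental level with a 95% interval of 0.184 to 0.253. Beside this fall, none of the 9 measured silencing genes passed the test: 0 were upregulated and 0 downregulated, and 0 had an unadjusted p under 0.05, where 12.4% of all tested genes did. DESeq2 and limma voom also called 0 of the 9, and by each 0 had an unadjusted p under 0.05. Over all genes, DESeq2 called 295 and limma voom with TMM factors 368. Their shares of all genes with an unadjusted p under 0.05 were not computed. The log2 fold changes of the 9 ran from −0.38 (*TET1*) to 0.23 (*DNMT3A*) with a median of 0.06, against a median of 0.0016 over all genes tested. Of the 9, 6 were positive and 3 negative, where 8639 of all 17143 tested genes were positive. The levels of the lines did not overlap for 8 of the 9, where this held for 42.6% of all tested genes. Of those 8, 5 were higher in FLO-1LM (*DNMT1*, *DNMT3A*, *DNMT3B*, *EED*, *SUZ12*) and 3 were lower (*TET1*, *TET3*, *EZH2*). With 2 libraries against 2, an exact two-sided permutation test on 1 gene gives a p of 0.333 at the lowest, so a separation without overlap is no test by itself.

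**Figure D1:**
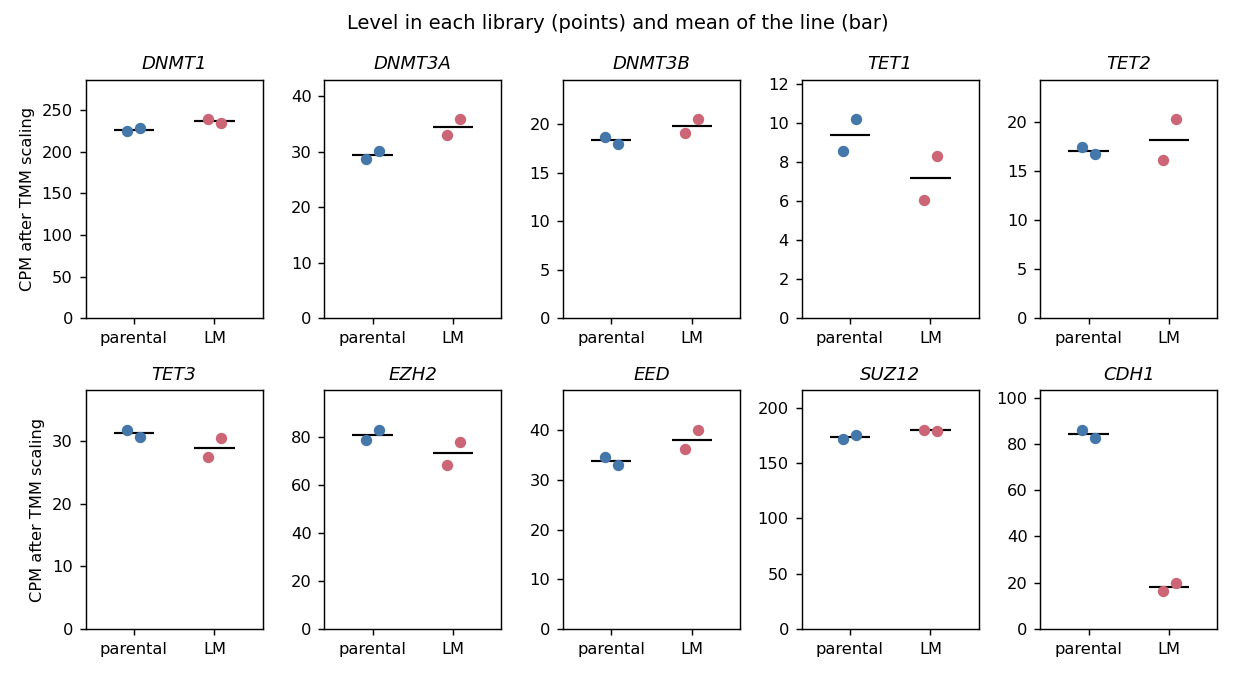
Level of each measured silencing gene and of *CDH1* in the 4 libraries, in CPM after TMM scaling on axes that start at 0, with 1 point per library and a bar at the mean of the 2 libraries of a line (parental, FLO-1 parental; LM, FLO-1LM). *CDH1* falls from 82.6 to 85.9 CPM to 16.4 to 19.9 CPM, whereas the points of the silencing genes of both lines lie close together, with *TET1* the widest apart relative to its level.

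Among the DNA methyltransferases, all 3 measured genes were slightly higher in both FLO-1LM libraries than in either parental library, and none passed the test. Such a separation, in either direction, held for 42.6% of all tested genes and is no test by itself. *DNMT1* (ENSG00000130816; GRCh37 chromosome 19, 10244018 to 10341962, minus strand) is the maintenance enzyme. It had 239 and 234 CPM in FLO-1LM and 224 and 228 CPM in parental cells, a mean of 236 ± 3.19 against 226 ± 2.53 CPM (SD, n = 2 each). The FLO-1LM libraries were the higher pair, with a difference of means larger than the SD of either line, and the gene did not pass the test (log2 fold change 0.06, SE 0.072, adjusted p-value 0.808). The 95% interval of the fold change ran from 0.942 to 1.16. The exons of *DNMT1* overlap those of *S1PR2* on the same strand over 83 bases, but *S1PR2* had only 20 to 34 counts in any library, against at least 4369 for *DNMT1*.

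*DNMT3A* (ENSG00000119772; chromosome 2, 25450724 to 25565459, minus strand), a de novo methyltransferase, was the silencing gene with the highest fold change of the 9. It had 734 and 922 counts in FLO-1LM and 634 and 577 in parental cells, or 32.9 and 35.8 CPM against 28.8 and 30.1 CPM. The lower FLO-1LM library still lay above the higher parental library. The mean was 34.4 ± 2.03 CPM against 29.4 ± 0.942 CPM, and the log2 fold change of 0.23 (SE 0.11) had an unadjusted p of 0.0583 and an adjusted p-value of 0.426 by edgeR. Its 95% interval, 0.994 to 1.38 on the fold scale, barely reached no change. The other de novo enzyme, *DNMT3B* (ENSG00000088305; chromosome 20, 31350191 to 31397165, plus strand), had 19.1 and 20.5 CPM in FLO-1LM and 18.7 and 17.9 CPM in parental cells. Library 1 of FLO-1LM and library 1 of the parental line were nearly level, and the log2 fold change of 0.11 (SE 0.14, adjusted p-value 0.829) was smaller than its standard error. The interval of its fold change was 0.885 to 1.32. *DNMT3L*, the catalytically inactive partner of the de novo enzymes in germ cells, had 0 counts in every library, where 3 counts would correspond to between 0.117 and 0.156 CPM.

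Since these enzymes act on CpG, the silencing genes were also compared by CpG content upstream of a listed start of each gene. The choice of genes did not use this feature. The dinucleotide CG was counted in the 250 bases upstream of the first start listed for each gene in RefSeq (GRCh38.p14, a later build than that of the counts). CG reads the same on both strands. It was present in the window of 93.6% of the 27305 genes with an entry, with a median of 11 per window. All 10 genes had an entry, *UHRF1* included. The counts were 38 for *EZH2*, 37 for *TET3*, 34 for *SUZ12*, 28 for *UHRF1*, 21 for both *DNMT1* and *DNMT3A*, 11 for *EED*, 10 for *TET2*, 9 for *TET1* and 3 for *DNMT3B*. The ends of this order are shown, 5′ to 3′ along the gene with each CpG in capitals, to set a CpG-dense window beside a CpG-poor one. Whether the start listed for *DNMT3B* is the outer start of the gene was not checked. Its window may therefore lie inside the gene and not be its main promoter, so its place in this order is uncertain. The window of *EZH2* (chr7:148884292-148884541, minus strand) held as many or more CpG than 97.5% of genes, that of *DNMT3B* (chr20:32779602-32779851, plus strand) as many or more than 30.1%.
EZH2 promoter: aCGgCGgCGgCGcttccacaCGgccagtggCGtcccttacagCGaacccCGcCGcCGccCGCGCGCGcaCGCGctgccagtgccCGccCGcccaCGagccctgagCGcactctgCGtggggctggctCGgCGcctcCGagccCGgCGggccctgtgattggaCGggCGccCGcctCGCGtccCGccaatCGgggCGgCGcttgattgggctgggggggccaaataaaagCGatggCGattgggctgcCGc
DNMT3B promoter: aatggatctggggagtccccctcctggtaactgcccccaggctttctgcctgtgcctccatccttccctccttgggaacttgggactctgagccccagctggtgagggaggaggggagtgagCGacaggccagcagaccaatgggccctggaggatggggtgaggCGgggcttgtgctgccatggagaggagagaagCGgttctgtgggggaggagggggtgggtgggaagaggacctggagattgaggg
Neither gene differed between the lines by the test, and the methylation of the windows was not measured. The counts and their order describe these windows only, since several genes have more than 1 start in the table. *DNMT3A* has 6, *UHRF1* and *TET1* have 3 each, and *TET2*, *TET3* and *EZH2* have 2 each.

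None of the TET dioxygenases passed the test. *TET1* (ENSG00000138336; chromosome 10, 70320094 to 70454244, plus strand) was the silencing gene with the lowest fold change. It had 135 and 214 counts in FLO-1LM and 189 and 195 in parental cells, or 6.06 and 8.31 CPM against 8.57 and 10.2 CPM. Library 1 of FLO-1LM was the lowest of the 4, while library 2 lay just under the lower parental library. The mean of 7.19 ± 1.59 CPM in FLO-1LM and 9.37 ± 1.13 CPM in parental cells gave a log2 fold change of −0.38 (SE 0.21, unadjusted p 0.0913, adjusted p-value 0.511). The 95% interval of the fold change was the widest of the 9, from 0.566 to 1.05, so that a fall of the size of *CDH1* lay outside it and a fall to 0.566 of the parental level did not. Without library 2 of FLO-1LM the log2 fold change was −0.63 with an adjusted p-value of 0.0628, the lowest of any member under any alternative, and without library 1 it was −0.17 with 0.712.

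*TET2* (ENSG00000168769; chromosome 4, 106067032 to 106200973, plus strand) had 16.2 and 20.3 CPM in FLO-1LM and 17.4 and 16.8 CPM in parental cells. It was the only one of the 9 whose lines overlapped, with the FLO-1LM libraries on either side of both parental ones. Its log2 fold change of 0.09 (SE 0.15, adjusted p-value 0.882) turned to −0.08 without library 2 of FLO-1LM. *TET3* (ENSG00000187605; chromosome 2, 74212037 to 74335303, plus strand) had 27.4 and 30.5 CPM in FLO-1LM and 31.8 and 30.7 CPM in parental cells. Library 2 of FLO-1LM nearly reached the lower parental library, and the log2 fold change was −0.11 (SE 0.11, adjusted p-value 0.796). The fold change intervals were 0.856 to 1.33 for *TET2* and 0.785 to 1.10 for *TET3*. An unnamed gene, ENSG00000235499, overlaps exons of *TET3* on the same strand over 390 bases and had 8 to 28 counts in any library, against at least 589 for *TET3*.

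The 3 PRC2 core genes did not move in 1 direction, and none passed the test. *EZH2* (ENSG00000106462; chromosome 7, 148504349 to 148581413, minus strand), the methyltransferase subunit, had 1525 and 2004 counts in FLO-1LM and 1735 and 1588 in parental cells, or 68.4 and 77.8 CPM against 78.7 and 82.8 CPM. Library 1 of FLO-1LM stood lowest, and library 2 lay just under the lower parental library. The mean of 73.1 ± 6.64 CPM against 80.8 ± 2.91 CPM gave a log2 fold change of −0.14 (SE 0.090, adjusted p-value 0.585). The 95% interval of the fold change, 0.795 to 1.03, covers no rise above 1.03-fold. *EED* (ENSG00000074266; chromosome 11, 85912254 to 85989855, plus strand), the subunit that reads the mark, had 36.1 and 40.0 CPM in FLO-1LM and 34.6 and 33.1 CPM in parental cells. Both FLO-1LM libraries were the higher ones, with a log2 fold change of 0.17 (SE 0.11, adjusted p-value 0.585) and a fold change interval of 0.962 to 1.32. *SUZ12* (ENSG00000178691; chromosome 17, 30264026 to 30328057, plus strand), the scaffold, had 179.8 and 179.2 CPM in FLO-1LM and 171.9 and 175.1 CPM in parental cells. It had the smallest fold change of the 9 in size (log2 fold change 0.05, SE 0.074, adjusted p-value 0.870) and a fold change interval of 0.930 to 1.15.

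Some PRC2 genes have copies that can share reads with them, and how such reads were counted is not given in the sources used here. *SUZ12P1*, a transcribed partial copy of *SUZ12*, had 334 and 410 counts in FLO-1LM and 292 and 234 in parental cells (log2 fold change 0.28, SE 0.16, adjusted p-value 0.511). *SUZ12* itself had 3358 to 4614 counts. *EZH2P1* had 47 to 77 counts, with a log2 fold change of −0.0092 and an adjusted p-value of 0.996. *EEDP1* had 1 count in 1 parental library, and *DNMT3AP1*, *TET1P1* and the antisense transcript *TET2-AS1* had 0 in every library.

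**Figure D2:**
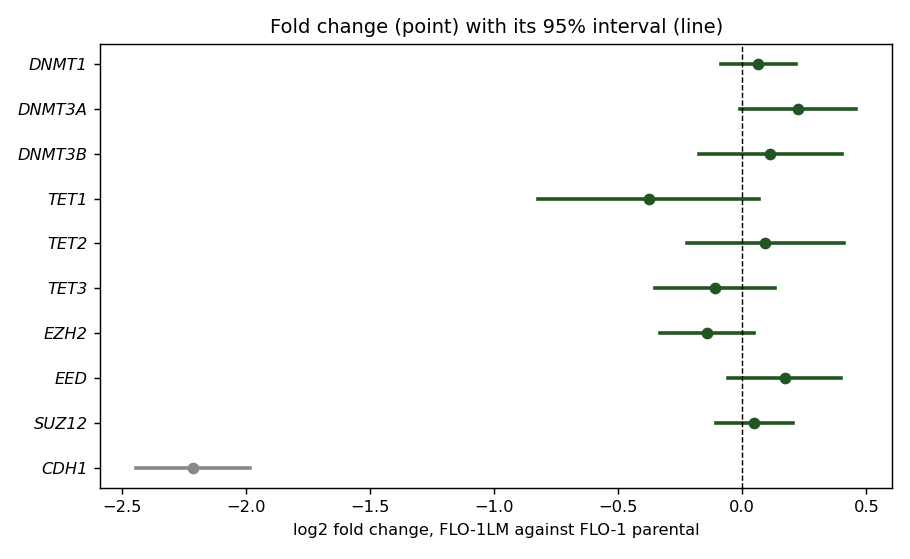
Log2 fold change of FLO-1LM against FLO-1 parental for the 9 measured silencing genes (green) and *CDH1* (grey), as a point with its 95% interval from the edgeR fit over all 4 libraries. The intervals of the 9 reach no lower than −0.82 (*TET1*) and no higher than 0.46 (*DNMT3A*) and all cross 0, whereas the interval of *CDH1* lies between −2.44 and −1.98.

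*DNMT1*, *UHRF1* and *EZH2* are known to rise in S phase and with proliferation, so genes of that phase were read beside them. Of 18 S-phase and proliferation genes, all tested, 0 passed in either direction by edgeR, DESeq2 or limma voom, and 1 had an unadjusted p under 0.05 by edgeR, by limma voom also 1, and by DESeq2 0. The gene below 0.05 by edgeR was *CDK1*, named after its value was seen. The summed level was 3948 to 3964 CPM in FLO-1LM and 3806 to 3839 CPM in parental cells. The median log2 fold change of the list was 0.02, from −0.10 for *E2F2* to 0.23 for *CCNE2*, both cell cycle regulators. In bulk libraries, fewer cells with a transcript and less of it per cell cannot be told apart.

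Scaled to the length of the canonical transcript, *DNMT1* had the highest level of the 9 and *TET1* the lowest. As means over the 4 libraries in CPM per kilobase, *DNMT1* stood at 43.8 (range 42.5 to 45.3), *SUZ12* at 39.3, *EZH2* at 29.0 and *EED* at 17.2. After these came *DNMT3B* at 4.39, *DNMT3A* at 3.39, *TET3* at 2.50, *TET2* at 1.84 and *TET1* at 0.861 (range 0.630 to 1.06). The maintenance enzyme and the PRC2 core thus lay above the de novo enzymes and the TET genes in every library, and no neighbours in this order overlapped in their ranges over the 4 libraries. The order depends on which transcript is taken as the length. With the union of all annotated exons, *SUZ12* stood at 26.9 and *DNMT1* at 15.04 CPM per kilobase, followed by *EZH2* at 7.14, *EED* at 5.14 and *DNMT3B* at 2.77. On that scale *TET3* at 2.33 and *DNMT3A* at 2.31 overlapped over the libraries, and so did *TET2* at 1.07 (range 0.981 to 1.23) and *TET1* at 0.861 (range 0.630 to 1.06), the lowest of the 9 by mean.

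**Figure D3:**
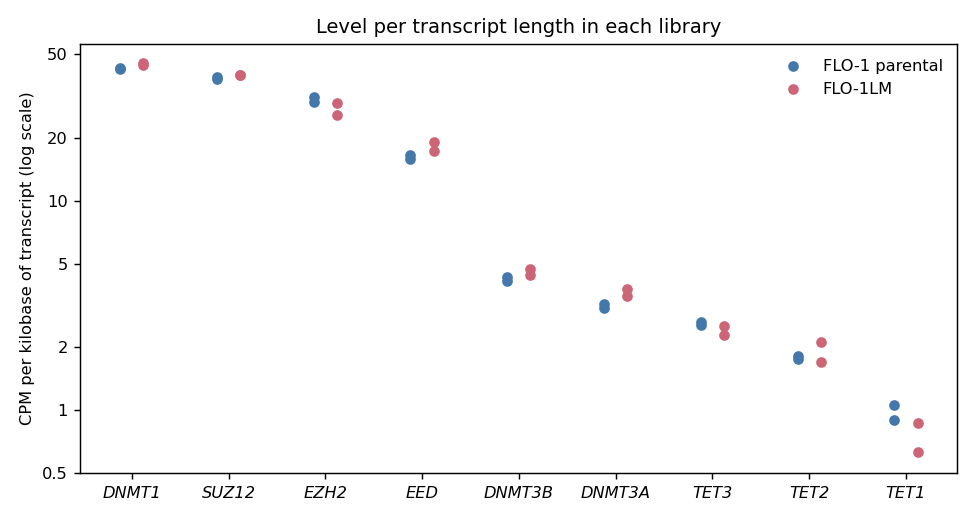
Level of the 9 measured silencing genes in CPM per kilobase of the canonical transcript, on a log scale, with 1 point per library (blue, FLO-1 parental; red, FLO-1LM). *DNMT1*, *SUZ12*, *EZH2* and *EED* lie between 15.8 and 45.3, the other genes between 0.630 and 4.72, and for each gene the lines lie side by side.

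Ratios between members within a library do not depend on library scaling and were read as a description. The ratio of *EZH2* to *EED* counts was 1.89 and 1.95 in FLO-1LM and 2.27 and 2.50 in parental cells, so that both FLO-1LM libraries were lower. The ratio of *EZH2* to *SUZ12* was 0.381 and 0.434 in FLO-1LM and 0.458 and 0.473 in parental cells, again the lower pair in FLO-1LM. The ratio of *EED* to *SUZ12* was 0.201 and 0.223 against 0.201 and 0.189, with overlap of the lines. How often ratios of other genes separate the lines was not counted. The mean log2 ratio differed between the lines, FLO-1LM minus parental, by −0.31, −0.19 and 0.12 in that order. The ratio of *DNMT1* to the summed counts of the TET genes was 4.81 in library 1 of FLO-1LM and 3.96 in library 2, against 3.88 and 3.95 in parental cells, so that library 1 alone stood apart.

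The other genes of these pathways were read from 8 lists of 105 genes in all, of which 103 were matched and 99 tested. None of the 99 passed in either direction by edgeR, DESeq2 or limma voom. By edgeR 7 had an unadjusted p under 0.05 (7.07%, beside 12.4% of all tested genes), by DESeq2 3 and by limma voom 6. For DESeq2 and limma voom that share over all genes was not computed. The lines did not overlap for 44 of the 99 (44.4%, beside 42.6%), 19 higher and 25 lower in FLO-1LM, and the median log2 fold change was −0.01. For 70.6% of all tested genes the log2 fold change lay within 0.25 of 0. Of the 7 genes with a low unadjusted p, *CDCA7L*, *CXXC4*, *JARID2*, *PCGF6* and *HDAC8* were the highest or lowest of their lists, and *GADD45B* and *HDAC1* are named after their values were seen.

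Among 11 tested partners of maintenance and de novo methylation, fold changes ran from −0.11 on the log2 scale for *DMAP1*, a DNMT1-associated protein, to 0.28 for *CDCA7L*, with a median of 0.02. *CDCA7L*, a relative of the chromatin remodelling cofactor CDCA7, had 45.6 and 43.4 CPM in FLO-1LM and 37.9 and 35.5 CPM in parental cells, without overlap but with an adjusted p-value of 0.226 by edgeR. *UHRF2*, the paralogue of *UHRF1*, had 1148 and 1482 counts in FLO-1LM and 1188 and 859 in parental cells, where only the second parental library stood apart (log2 fold change 0.14, adjusted p-value 0.657). *HELLS*, the remodelling ATPase that opens heterochromatin for methylation, had a log2 fold change of −0.05. Of the 8 methyl-CpG binding genes, the reading end of the pathway, the highest log2 fold change was 0.16 (*MBD4*, which is also a glycosylase) and the median 0.10, and 0 had an unadjusted p under 0.05 by edgeR, DESeq2 or limma voom.

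Among 15 tested partners of the TET enzymes and base excision genes, the median was 0.05 and the range ran from −0.16 for *SMUG1*, a uracil glycosylase, to 0.90 for *CXXC4*, which is known to bind TET2. *CXXC4* had 45 and 81 counts in FLO-1LM and 30 and 27 in parental cells, or 2.02 and 3.15 CPM against 1.36 and 1.41 CPM. Both FLO-1LM libraries were higher, at a low level and with a wide error (SE 0.41, adjusted p-value 0.369). *GADD45B*, a stress-induced gene linked to active demethylation, had 1149 and 1354 counts in FLO-1LM and 831 and 850 in parental cells. Its log2 fold change of 0.35 (SE 0.10) had an adjusted p-value of 0.105 by edgeR. The log2 fold change was 0.36 without library 1 and 0.33 without library 2 of FLO-1LM.

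On the Polycomb side, 8 of 9 tested accessory PRC2 genes had a negative log2 fold change, with a median of −0.07, and 0 passed. Of all 17143 tested genes, 8639 had a positive one. The lines did not overlap for 3 of the 9 (33.3%, beside 42.6% of all tested genes), all 3 lower in FLO-1LM. The lowest was *JARID2*, a subunit that helps to bring PRC2 to its targets, with 31.4 and 33.1 CPM in FLO-1LM and 38.1 and 38.4 CPM in parental cells. Both FLO-1LM libraries were lower (log2 fold change −0.25, SE 0.11), and the adjusted p-value was 0.342. The only positive one was *LCOR* at 0.07, whose lines overlapped. *EZH1*, the alternative catalytic subunit, had a log2 fold change of −0.01, and *EZHIP*, an inhibitor of PRC2, had 0 counts in every library.

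Of 21 tested genes of PRC1, the complex that ubiquitylates histone H2A, 0 passed, and the range ran from −0.27 for *PCGF6* to 0.16 for *RNF2*, its main E3 ligase, with a median of −0.05. *PCGF6*, a subunit of a variant PRC1, had 26.03 and 23.5 CPM in FLO-1LM against 30.6 and 28.9 CPM in parental cells, without overlap and with an adjusted p-value of 0.369. *BMI1*, named after its values were seen, passed without library 2 of FLO-1LM (log2 fold change 0.30, adjusted p-value 0.0380) and had 0.12 and 0.743 with all libraries. The 5 tested genes that take the Polycomb marks away, the H3K27 demethylases and the BAP1 deubiquitylase complex, all had negative log2 fold changes, from −0.17 for *KDM6A* to −0.03 for *ASXL2*, with a median of −0.11 and 0 with an unadjusted p under 0.05 by edgeR, DESeq2 or limma voom. Over all 17143 tested genes, 8639 log2 fold changes were positive.

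Of 11 tested genes of H3K9 methylation, the mark of constitutive heterochromatin, 0 passed and 0 had an unadjusted p under 0.05 by any of the 3 tools, with a range from −0.09 for *CBX3*, a heterochromatin protein, to 0.32 for *SETDB2*, a member of the SET domain methyltransferases. Among 19 genes of histone deacetylase and corepressor complexes, 0 passed, with a range from −0.17 for the corepressor *CTBP2* to 0.30 for *HDAC8*. *HDAC8* had 24.3 and 23.1 CPM in FLO-1LM and 20.3 and 18.2 CPM in parental cells, without overlap (SE 0.13, adjusted p-value 0.364). *HDAC1*, the deacetylase with 10000 to 12085 counts per library, had a log2 fold change of −0.17 (SE 0.068, adjusted p-value 0.305).

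**Figure D4:**
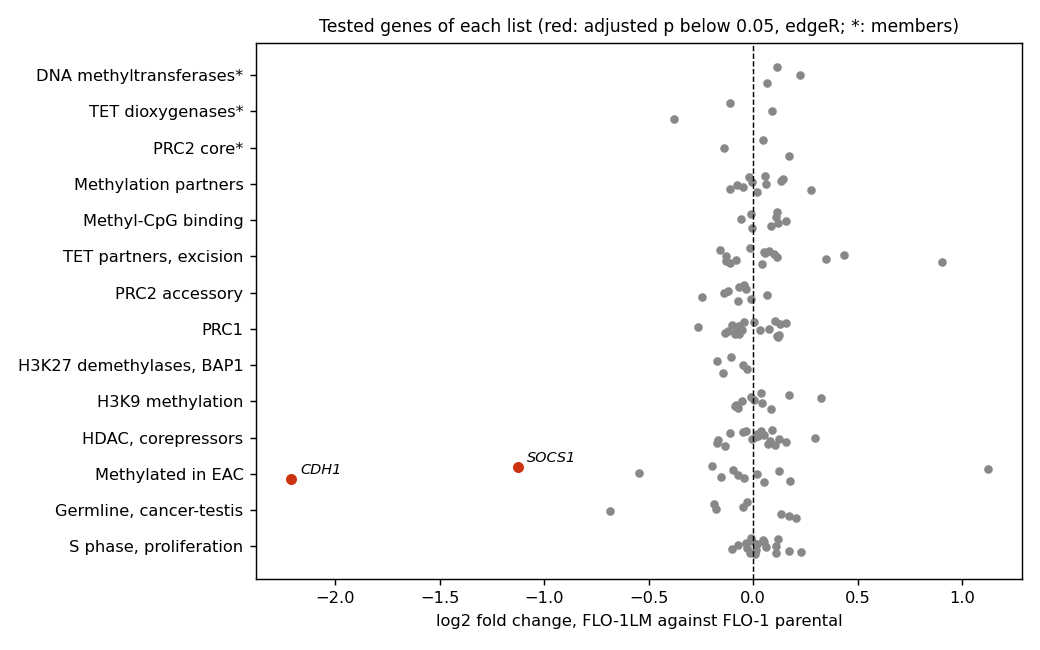
Log2 fold change of FLO-1LM against FLO-1 parental for every tested gene of the silencing machinery, its pathway lists and the lists of genes that such silencing is known to hold down, with 1 point per gene (red, adjusted p-value under 0.05 by edgeR). The S-phase and proliferation genes are shown as a further list. The only red points are *CDH1* at −2.21 and *SOCS1* at −1.12, both in the list of genes methylated in EAC, while the 9 measured silencing genes lie between −0.38 and 0.23.

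The genes that the machinery is known to silence were read from 30 genes with promoter methylation reported in EAC, of which 13 were tested. Of these 13, 0 were upregulated and 2 were downregulated, *CDH1* and *SOCS1*, where 1.83% of all tested genes were downregulated. DESeq2 called 1 of the 13, *CDH1*, and limma voom called 2, beside 295 and 368 over all genes. That *CDH1* had fallen was known when the list was drawn up. *GPX3*, a secreted glutathione peroxidase named after its values were seen, passed without library 1 of FLO-1LM (log2 fold change −0.85, adjusted p-value 0.0358) and had −0.55 and 0.405 with all libraries. The median log2 fold change of the 13 was −0.07, and the highest, 1.12 for the transcription factor *RUNX3*, rested on 14 and 48 counts against 17 and 7, with overlap of the lines and an adjusted p-value of 0.545. *SOCS1*, a feedback inhibitor of JAK-STAT signaling, had 89 and 69 counts in FLO-1LM and 152 and 146 in parental cells, or 3.99 and 2.68 CPM against 6.90 and 7.61 CPM. Both FLO-1LM libraries were lower (log2 fold change −1.12, SE 0.26, adjusted p-value 0.0249 by edgeR). The call was lost with DESeq2 (adjusted p-value 0.0811) and without parental library 1 (0.158) or 2 (0.265). The cell cycle inhibitor *CDKN2A* (−0.05, adjusted p-value 0.922) and the WNT regulator *APC* (0.17, 0.523) did not pass, on the log2 scale of fold change.

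Of the other 17 genes of the list, 12 had 0 counts in all 4 libraries, among them *MGMT*, which repairs alkylated guanine, *RPRM*, *TFPI2* and the WNT antagonists *SFRP1*, *SFRP2* and *WIF1*. The other 5, *CDH13*, *FHIT*, *RARB*, *CHFR* and *ESR1*, had at most 6 counts in any library, so that neither line could be placed above the other at this depth. A count of 0 leaves room for up to 0.117 to 0.156 CPM. The upstream windows of a downregulated gene and of a gene with 0 counts are shown, with each CpG in capitals, to place both among promoters by CpG content. The window of *SOCS1* (chr16:11256205-11256454, GRCh38.p14, minus strand) held 27 CpG, as many or more than 84.5% of genes, and that of *MGMT* (chr10:129466991-129467240, plus strand) held 36, as many or more than 96.1%.
SOCS1 promoter: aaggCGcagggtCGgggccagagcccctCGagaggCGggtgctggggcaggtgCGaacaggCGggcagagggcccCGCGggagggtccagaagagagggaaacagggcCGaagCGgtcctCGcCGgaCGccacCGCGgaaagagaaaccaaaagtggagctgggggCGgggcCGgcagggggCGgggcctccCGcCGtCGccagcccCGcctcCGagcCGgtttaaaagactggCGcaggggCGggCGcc
MGMT promoter: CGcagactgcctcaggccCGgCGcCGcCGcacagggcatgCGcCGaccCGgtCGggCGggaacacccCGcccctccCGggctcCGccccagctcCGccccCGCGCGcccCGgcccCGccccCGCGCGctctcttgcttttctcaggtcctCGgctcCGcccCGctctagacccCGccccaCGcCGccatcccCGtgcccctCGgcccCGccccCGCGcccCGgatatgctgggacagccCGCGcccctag
Whether these windows were methylated was not measured, and *CDH1* had no entry in the table.

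Germline and cancer-testis genes, which DNA methylation is known to hold silent in most somatic cells, were listed with 28 members, of which 8 were tested and 14 had 0 counts in every library. None of the 8 passed by edgeR, DESeq2 or limma voom, and the number with an unadjusted p under 0.05 was 1 by edgeR, 1 by limma voom and 0 by DESeq2. The gene below 0.05 by edgeR, *MAGEA3* (log2 fold change −0.18, adjusted p-value 0.389), is named after its value was seen. It may share reads with its near-identical copy *MAGEA6*, so its value is uncertain. *MAGEA4*, a cancer-testis antigen, had 12604 and 15208 counts in FLO-1LM and 12842 and 11746 in parental cells, or 566 and 591 CPM against 583 and 613 CPM. Its level was high in all 4 libraries, with overlap of the lines (log2 fold change −0.05, adjusted p-value 0.864). *PRAME*, another such antigen, had 8187 and 9219 counts against 8048 and 7215 (−0.03, adjusted p-value 0.916). The germ cell genes *DAZL* and *DDX4* had 0 counts in every library. The range of the 8 ran from −0.69 for *MAGEA12* to 0.20 for *HORMAD1*, a meiotic chromosome protein. *MAGEA12* had 48 and 13 counts in FLO-1LM against 35 and 51 in parental cells, and the first FLO-1LM library lay among the parental ones. Its log2 fold change was −2.05 with an adjusted p-value of 0.0137 without library 1 of FLO-1LM and 0.03 without library 2. The window upstream of the first listed of 5 starts of *MAGEA4* (chrX:151912224-151912473, GRCh38.p14, plus strand) is shown as that of a cancer-testis gene with high counts in both lines, and it held 6 CpG, in capitals, as many or more than 41.6% of genes.
MAGEA4 promoter: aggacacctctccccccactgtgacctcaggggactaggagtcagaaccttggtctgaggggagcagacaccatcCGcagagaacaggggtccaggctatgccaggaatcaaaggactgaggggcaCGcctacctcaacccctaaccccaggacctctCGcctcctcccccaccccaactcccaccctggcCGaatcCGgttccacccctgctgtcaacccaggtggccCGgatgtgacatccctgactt
The window describes its letters only, and its methylation was not measured.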

How the data were processed

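RNA of cultured cells was sequenced in 4 libraries, 2 of FLO-1LM and 2 of FLO-1 parental cells, grouped by the cell line in the labels. The authors prepared directional libraries, trimmed adapters (bcl2fastq 2.17 and Trimmomatic 0.30 are named in the submitters' processing notes), mapped reads to GRCh37 and deposited raw read counts per Ensembl gene. Neither the aligner nor how reads were counted, strand included, is given in the sources used here, so reads shared by copies or by genes on opposite strands may be split or lost.

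From the deposited counts, genes were kept by filterByExpr (minimum count 10, minimum total 15), which left 17143 of 63677. Lines were compared by edgeR 4.0.16 in R 4.3.3 (TMM, estimateDisp, glmQLFit, glmQLFTest) across all genes, with Benjamini-Hochberg adjustment and a threshold of 0.05. The SE is the absolute log2 fold change over the square root of F, and 95% intervals use it with the moderated degrees of freedom. The common biological coefficient of variation was 0.0899, and the intervals come from the F of each gene. The script was tested on simulated data. Lengths and positions came from GENCODE 44 on GRCh37, a later annotation than may have been counted on. Promoter windows came from RefSeq.

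Named were the 10 genes, *CDH1*, and from each list the genes past the threshold or, with fewer than 2, the highest and lowest fold change. Genes named outside this rule were chosen after their values were seen. Some were chosen for their known roles, others for a low p-value or for a call with a library left out. Some genes of the lists are not reported here. The members and lists were chosen with earlier results of these data known. Alternatives were RLE factors, library totals only, DESeq2 1.42.0, limma voom 3.58.1 with and without TMM, 2 other filters, no mitochondrial genes, each library left out, and, chosen after seeing the data, the union of exons as length.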

Additional observations from a re-analysis of the deposited data

How the results depend on the processing

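Of 108 values of the 9 measured silencing genes (12 alternatives each), none passed the threshold, 107 kept their direction and 1 turned: *TET2* was −0.082 without FLO-1LM replicate 2. Over the 4 fits that leave out a library, the *TET2* log2 fold change ran from −0.082 to 0.24, that of *TET1* from −0.63 to −0.17, *EZH2* from −0.24 to −0.05, *TET3* from −0.19 to −0.04, *DNMT3B* from 0.06 to 0.16, *EED* from 0.09 to 0.24, *DNMT3A* from 0.16 to 0.28, *DNMT1* from 0.05 to 0.08 and *SUZ12* from 0.04 to 0.06. Leaving out a library leaves an arm with 1 sample, which is assumed to vary like the other line. The number of genes past the threshold over all genes was 577 with no low-count filter (147 higher), the number lower was 203 with at least 10 counts in every library, and with a library left out the numbers ran from 116 to 1052 in all, 20 to 356 higher and 96 to 696 lower. The cause was not tested. With a library left out, calls ran from 0 to 1 among TET partners and base excision, PRC1, and germline genes, and from 1 to 3 among genes methylated in EAC, where DESeq2 called 1. Named genes that changed direction, with their range over these fits, were *SMUG1* (−0.36 to 0.0088, the latter without FLO-1LM library 1), *LCOR* (−0.075 to 0.23, negative without parental library 2 and, at −0.017, without FLO-1LM library 1), *ASXL2* (−0.12 to 0.076, positive without parental library 1 and, at 0.0079, without FLO-1LM library 1) and *MAGEA12* (−2.05 to 0.032, the latter without FLO-1LM library 2). *SOCS1* lost its call with DESeq2 (−1.12, adjusted p-value 0.0811) and without parental library 1 (−1.19) or 2 (−1.05). No paired analysis was possible because the labels give the lines no shared replicate numbers: 1 and 2 are only names given here to the libraries of a line. *TET1*, with 135 to 214 counts, had the widest fold change interval of the 9, 0.566 to 1.05, and the parts of depth and of the spread between libraries in it were not tested.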
